A study of Arabidopsis thaliana with 17 samples.

Results

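GASA genes encode small secreted peptides of the gibberellin-regulated family, and 8 of them, GASA1 to GASA6, GASA10 and GASA14, were followed here in Arabidopsis thaliana root cells before and after bioprinting. They were found by locus ID in the authors' deposited table of 33201 lines, where each of the 8 has a line of its own. The family was picked after GASA5 had been seen to rise strongly in the constructs, so its own course and the changes between days are given as a description. The other 7 loci of the 15-locus family, GASA7 to GASA9, GASA11 to GASA13 and GASA15, are given beside them.

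Gibberellins are growth hormones that act by removing DELLA proteins, nuclear repressors of growth. A gibberellin bound by a GID1 receptor brings the DELLA protein to the SLY1 F-box protein, which marks it for destruction. GASA transcripts were first known as genes whose level follows gibberellin. The peptides carry a signal for secretion and a cysteine-rich end, and members are known for roles in cell elongation, meristem growth, flowering time and redox balance.

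All 17 libraries came from plants with the pSCR:SCR-mCherry transgene, which puts the SCARECROW fusion under its own promoter, active in the endodermis and stem cell niche. Isolated cells at day 0, the control, had 3 libraries from differentiated and 3 from meristematic root tissue. Bioprinted constructs, in which living cells are laid down by a machine in a printable material, had 3 libraries at day 0 from each tissue. Constructs of differentiated tissue also had 3 libraries at day 1 and 2 at day 3, and no later day was labelled for meristematic tissue. No treatment with a gibberellin or other agent is labelled. The series speaks of independent experiments, but the labels do not tie libraries to plants.

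Levels are pooled FPKM, fragments per length of transcript scaled to mapped fragments, with 1 value per group made by the authors. Read depth is unknown from FPKM, and pooled values carry no SD. A gene was tested in a comparison if its pooled FPKM reached 1 in either group, and called if the authors' q-value was then under 0.05. The lines of the library columns do not line up by gene, so values per library are given only for GASA1, as an approximation. Its pooled FPKM exceeded that of each neighbour within 25 lines except in constructs at day 3. Summed FPKM per library ran from 671184 to 996810, highest in replicate 3 of meristematic cells. Genes at an FPKM of at least 1 numbered 14756 in that library, 14779 in replicate 3 of constructs at day 1, and up to 16946 in the others. Except in constructs at day 3, every group had a pooled sum larger than its largest library sum. In meristematic cells the pooled sum was 1234080, and in differentiated cells 994663. At day 3 it was 741440, between library sums of 709225 and 808178.

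The tissue labels were set against root markers. Of 4 meristem markers, PLT1, PLT2, CYCB1;1 and KNOLLE, none was higher in cells labelled meristematic, and PLT1 was lower (pooled FPKM of 0.342 against 1.26; log2 ratio -1.88, q 0.0283 in the authors' deposited table). Summed over the 4, pooled FPKM was 6.57 in meristematic and 10.4 in differentiated cells. The 5 markers of differentiated root, COBL9, EXPA7, CASP1, GPAT5 and IRX3, summed to 642 and 655, and none of the 4 that were tested differed. The markers thus do not separate the tissues in the direction of the labels.

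The family is defined by its cysteines. In the RefSeq coding sequences of build TAIR10.1, each of the 15 loci ends in a stretch of 59 or 60 codons that starts and nearly ends with a cysteine and holds 12 of them. The stretches of GASA1, GASA4 and GASA5 are shown because these 3 genes carry most of the change between groups. Cysteine codons are in capitals, and the last 3 bases are the stop codon.
GASA1: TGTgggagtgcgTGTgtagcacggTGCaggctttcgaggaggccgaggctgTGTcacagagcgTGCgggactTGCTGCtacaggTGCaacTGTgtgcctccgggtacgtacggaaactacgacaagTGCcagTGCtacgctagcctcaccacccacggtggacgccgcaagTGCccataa
GASA4: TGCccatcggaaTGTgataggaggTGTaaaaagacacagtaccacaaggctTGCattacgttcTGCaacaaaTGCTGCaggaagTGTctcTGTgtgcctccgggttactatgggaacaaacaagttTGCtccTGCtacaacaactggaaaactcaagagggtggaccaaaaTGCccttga
GASA5: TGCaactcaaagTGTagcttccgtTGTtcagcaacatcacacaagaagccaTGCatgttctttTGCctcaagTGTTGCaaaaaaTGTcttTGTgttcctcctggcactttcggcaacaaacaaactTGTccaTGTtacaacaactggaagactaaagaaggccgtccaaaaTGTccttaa
The 12 capital codons stand at the same positions in all 3, and in 12 of the 15 loci, with a single codon more in GASA10, GASA14 and GASA15. Around them the bases differ. Over the 177 bases before the stop, GASA4 and GASA5 were identical at 65.0%, GASA1 and GASA4 at 49.2%, and GASA1 and GASA5 at 45.2%. GASA5 was closest to GASA6 among the loci with 59 codons, at 71.2%. GASA2 and GASA3, which have neighbouring locus numbers on chromosome 4, were identical at 87.6%, so reads could be split between them and their levels are uncertain.

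GASA1 (AT1G75750, chromosome 1) encodes 98 residues, GASA4 (AT5G15230, chromosome 5) 106 and GASA5 (AT3G02885, chromosome 3) 97. GASA14 (AT5G14920, chromosome 5) differs in build, with 275 codons of which 81 specify proline, and its cysteine-rich end begins at codon 216. Coordinates are left out because no source used here names the authors' genome build.

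GASA1 was the most abundant member in each of the 6 groups. Differentiated cells held this gibberellin-induced gene at a pooled FPKM of 3627, and their constructs at 2602 on day 0, 1287 on day 1 and 411 on day 3. In meristematic tissue it stood at 7330 in cells and 3510 in constructs. Ranked among all lines of the table, GASA1 was at place 11 in differentiated cells and place 5 in meristematic cells, and at place 268 in constructs at day 3. Its pooled level was lowest at day 3. The pooled value of meristematic cells was the highest. By approximate library values, which may in part belong to another gene, the mean of that group without replicate 3 was 2443. That was below differentiated cells (2974) and meristematic constructs (2778).

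GASA4, known for roles in meristem growth and in tolerance of heat, was the next most abundant member in the 4 groups of day 0. Pooled FPKM was 597 in differentiated cells, and their constructs had 318 on day 0, 64.04 on day 1 and 8.998 on day 3. Meristematic cells had 643 and meristematic constructs 263. Both tissues had more GASA4 in isolated cells than in constructs, and each later day had less.

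GASA5, known for delaying flowering and lowering heat tolerance in seedlings, was close to absent at day 0. Its pooled FPKM was 0.602 in differentiated cells, 0.889 in their constructs, 0.711 in meristematic cells and 0.147 in meristematic constructs. At day 1 it was 80.1 and at day 3 it was 160 (159.5). The order of GASA4 and GASA5 turned between these days. GASA4 exceeded GASA5 357-fold in constructs at day 0, GASA5 exceeded GASA4 1.25-fold at day 1, and it did so 17.7-fold at day 3.

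**Figure D1:**
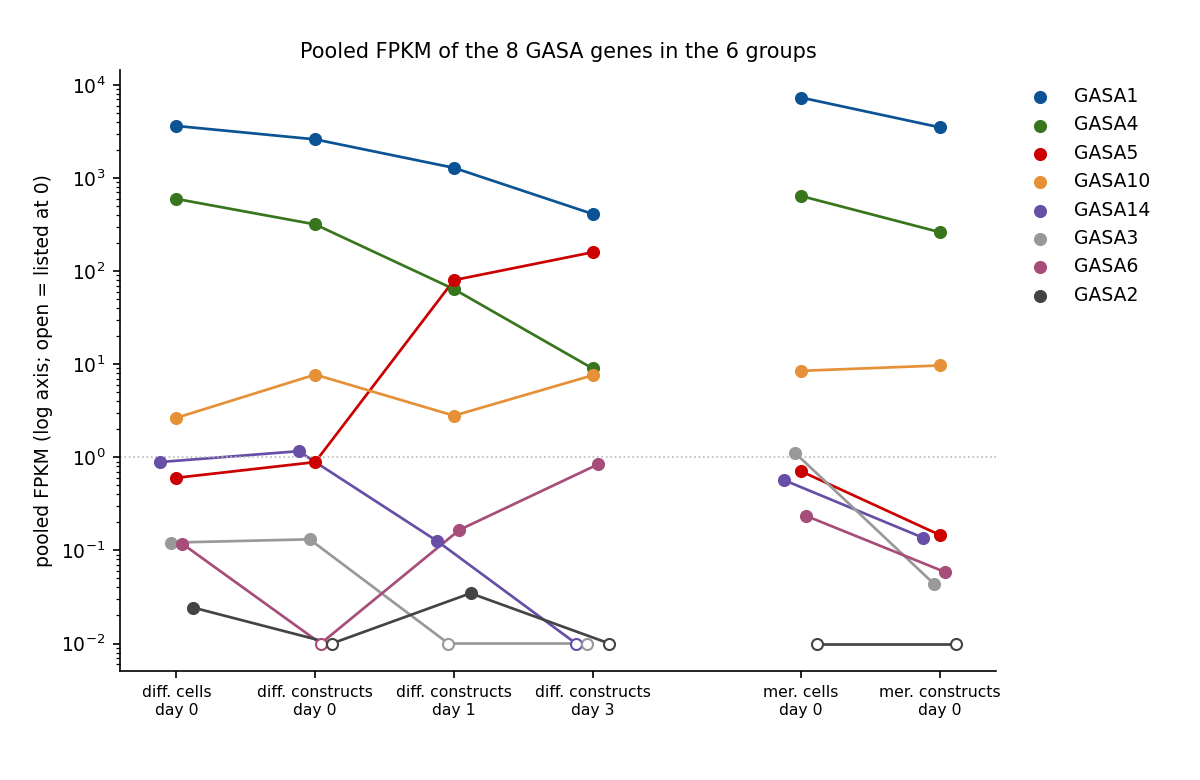
Pooled FPKM (log axis) of the 8 GASA genes in the 6 groups; lines join groups of 1 tissue, open points at the bottom are listed at 0, and some points are shifted sideways so that all can be seen. GASA1 and GASA4 descend from left to right among differentiated samples while GASA5 climbs from 0.889 at day 0 to 80.1 and 159.5.

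The remaining 5 members were low. GASA10 (AT5G59845) was the only one of them at an FPKM of at least 1 in each group, with 2.66 in differentiated cells, 7.74, 2.80 and 7.61 in their constructs on days 0, 1 and 3, 8.49 in meristematic cells and 9.70 in meristematic constructs. GASA14, known from leaf expansion, reached 1.16 in differentiated constructs at day 0, was at 0.126 at day 1 and was listed at 0 at day 3. GASA3 reached 1.11 in meristematic cells and stayed at or under 0.132 in the other groups, and GASA2 did not exceed 0.0347. GASA6, known for promoting seed germination, was listed at 0 in constructs at day 0 and reached 0.842 at day 3. A level listed at 0 in a table of FPKM can be a failed estimate.

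Summed over the 15 loci, the family's transcript pool shrank and changed its make-up. From 4410 in differentiated cells the sum was 3055, 1510 and 597 in their constructs on days 0, 1 and 3, and it was 8203 in meristematic cells and 3885 in meristematic constructs. As a share of all pooled FPKM, the 15 loci held 0.443% in differentiated cells and 0.0805% in constructs at day 3. Of the family's sum, GASA1 made up 85.2% in constructs at day 0 and 68.9% at day 3, GASA4 10.4% and 1.51%, and GASA5 0.0291% and 26.7%. GASA7 (AT2G14900), outside the 8, held 4.02% and 1.32%.

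**Figure D2:**
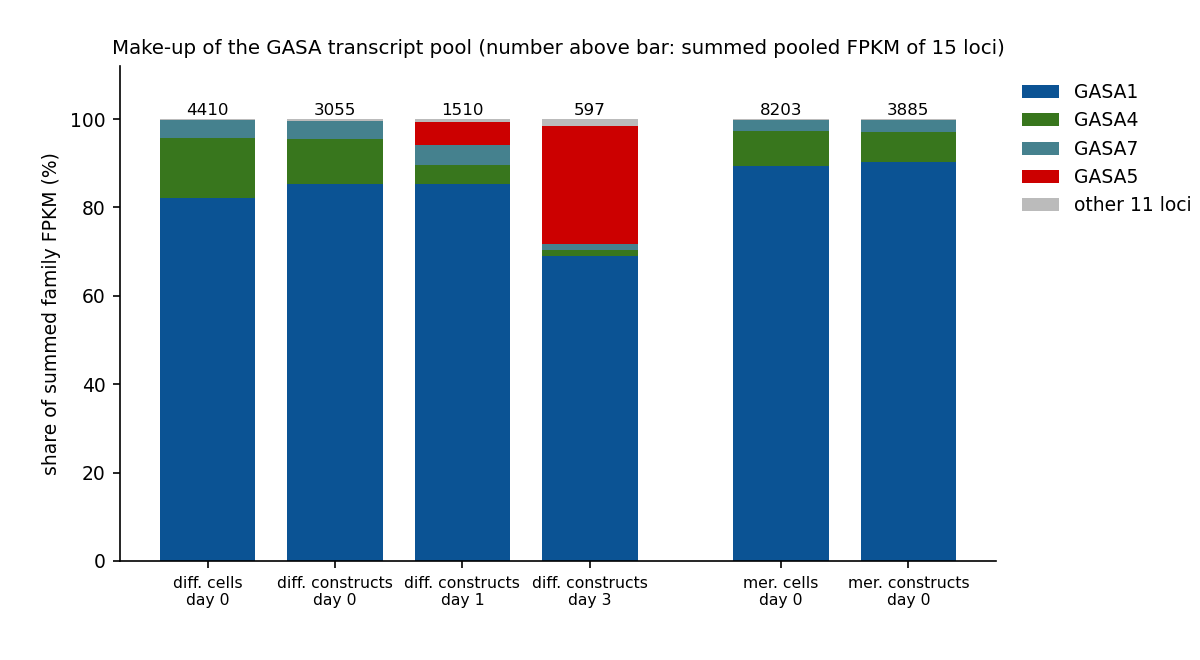
Share of each gene in the summed pooled FPKM of the 15 GASA loci, in percent, for the 6 groups; the number above each bar is that sum. GASA5, at 0.0291% in differentiated constructs at day 0, fills 26.7% of a pool of 597 at day 3.

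The first comparison set fresh constructs against isolated cells. Among differentiated samples, GASA4 fell from 597 to 318 (log2 ratio -0.91, q 0.0244) in the authors' deposited table. GASA10 rose there from 2.66 to 7.74 (log2 ratio 1.54, q 0.0457 in the authors' deposited table). GASA1 and GASA14 were tested and not called, at -0.48 (q 0.481) and 0.39 (q 0.706) on the log2 scale of the authors' deposited table. So 2 of the 4 members tested were called, against 12.5% of the 17654 genes tested (5.08% higher, 7.38% lower).

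In meristematic tissue GASA4 also fell in constructs, from 643 to 263 (log2 ratio -1.29, q 0.00623 in the authors' deposited table). It was the 1 called member of 4 tested, against 10.4% of 17561 genes (1.86% higher, 8.52% lower). GASA10 was at 0.19 (q 0.804) and GASA1 at -1.06 (q 0.318) on the log2 scale in the authors' deposited table. Outside the 8, GASA7 fell from 214 to 100.9 (log2 ratio -1.09, q 0.0347) and GASA8 from 1.34 to a listed 0 (q 0.0152) in the authors' deposited table. The GASA8 levels are low. Its 1.57 at day 0 against a listed 0 at day 1 in differentiated constructs was not called. GASA1, GASA4 and GASA10 were tested in both tissues, and of these only GASA4 was called in both. The share of all genes called in both tissues was not computed, so nothing is read from this overlap. Whether the effect of printing on any gene differed between tissues was not tested, because pooled values come with no error. The median log2 ratio of all genes tested was -0.12 in differentiated and -0.14 in meristematic tissue. Over the 4 members tested it was -0.05 and -1.18, but these were not the same 4 genes. GASA14 was tested only in differentiated tissue. GASA3, at -4.67 (q 0.354 in the authors' deposited table), was tested only in meristematic tissue. The 2 member medians therefore do not compare the tissues.

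In these bulk samples fewer cells of a type and less RNA per cell cannot be told apart. The root hair markers COBL9 and EXPA7 fell in both comparisons as well, with log2 ratios of -1.73 and -0.74 in differentiated and -1.48 and -1.04 in meristematic tissue in the authors' deposited table. These were the 2 called of 4 tested differentiated root markers in either tissue, beside 7.38% and 8.52% of all genes lower. The summed level of all 5 markers went from 655 to 513 and from 642 to 451. Most of it was CASP1, from 559 to 451 and from 491 to 370, which was not called (q 0.523 and 0.378 in the authors' deposited table). IRX3 was higher in constructs of both tissues and not called. No marker was listed at 0. Their part in the GASA4 result was not tested.

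Between tissues, few members differed. In isolated cells GASA10 was higher in meristematic tissue, 8.49 against 2.66 (log2 ratio 1.68, q 0.0294 in the authors' deposited table). It was the 1 called member of 4 tested, where 7.75% of 17623 genes were called (4.63% higher, 3.12% lower). GASA1, with a log2 ratio of 1.02 (q 0.359), and GASA4, at 0.11 (q 0.865), were not called in the authors' deposited table. Between constructs of both tissues at day 0, none of 4 tested members was called, with 9.38% of 17627 genes called (4.77% higher, 4.61% lower); log2 ratios of meristematic over differentiated ran from -3.09 for GASA14 to 0.43 for GASA1 in the authors' deposited table, where q was 0.420 for GASA14 and 0.490 for GASA1. No member of this comparison passed an adjusted q of 0.05, and unadjusted p-values are not part of the table.

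**Figure D3:**
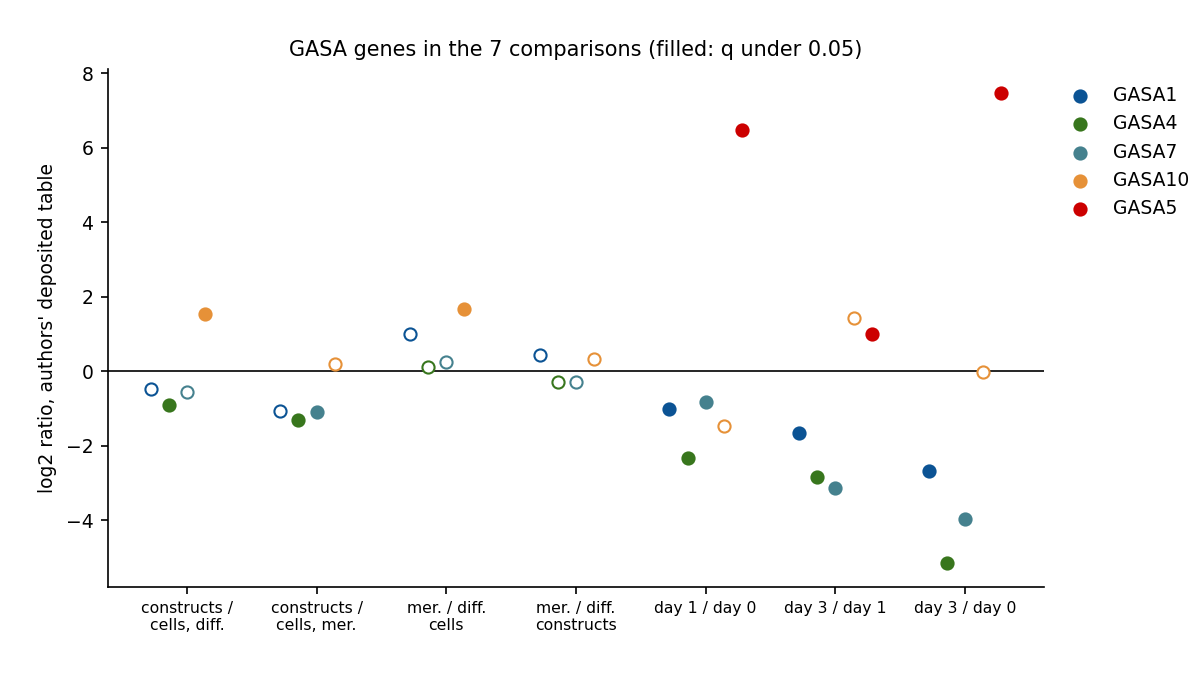
Log2 ratios from the authors' deposited table for GASA1, GASA4, GASA7, GASA10 and GASA5 in the 7 comparisons, the first-named group over the second; filled points have q under 0.05, and ratios with FPKM under 1 in both groups are left out. GASA4 lies below 0 in both comparisons of constructs with cells, and GASA5, whose rise led to the choice of the family, reaches 7.49 at day 3.

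Library values could be approximated for GASA1 alone. Within 25 lines to each side of its line, GASA1 held between 25.5% and 69.0% of the pooled FPKM of the genes named there, depending on the group, and the next gene did not exceed 667 in differentiated cells or 1427 in meristematic cells. Within 50 lines other genes reached 2150 in differentiated cells, 1431 in their constructs at day 0 and 3148 in meristematic cells. Library lines are displaced, so a value taken at day 0 may also belong to another gene. The highest library value within 25 lines was taken as an approximation. It was 4106, 2862 and 1954 in replicates 1 to 3 of differentiated cells (mean 2974 ± 1080, SD, n = 3), and 1805, 2145 and 2574 in their constructs at day 0 (2175 ± 385, SD, n = 3). These groups overlap.

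At day 1 the values were 1109, 852 and 1432 (1131 ± 291, SD, n = 3), and at day 3 they were 478 and 527 (503 ± 34.4, SD, n = 2). Each library of day 1 lay below each of day 0, and both of day 3 below each of day 1. At day 3 another gene of the window has a pooled FPKM of 456, above GASA1, so the 2 last values may belong to that gene.

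In meristematic cells 1 library stood apart. The values were 2657, 2229 and 8375 in replicates 1 to 3, and 2927, 2690 and 2717 in the constructs (2778 ± 130, SD, n = 3). Without replicate 3 the mean of meristematic cells was 2443, below that of differentiated cells (2974) and of meristematic constructs, whereas the mean of all 3 was 4420 ± 3432 (SD, n = 3), above both. By these library values the direction of both comparisons with meristematic cells thus turned without replicate 3; the pooled FPKM of 7330 could not be recomputed without it. The other members' values in that group could not be taken apart by library.

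**Figure D4:**
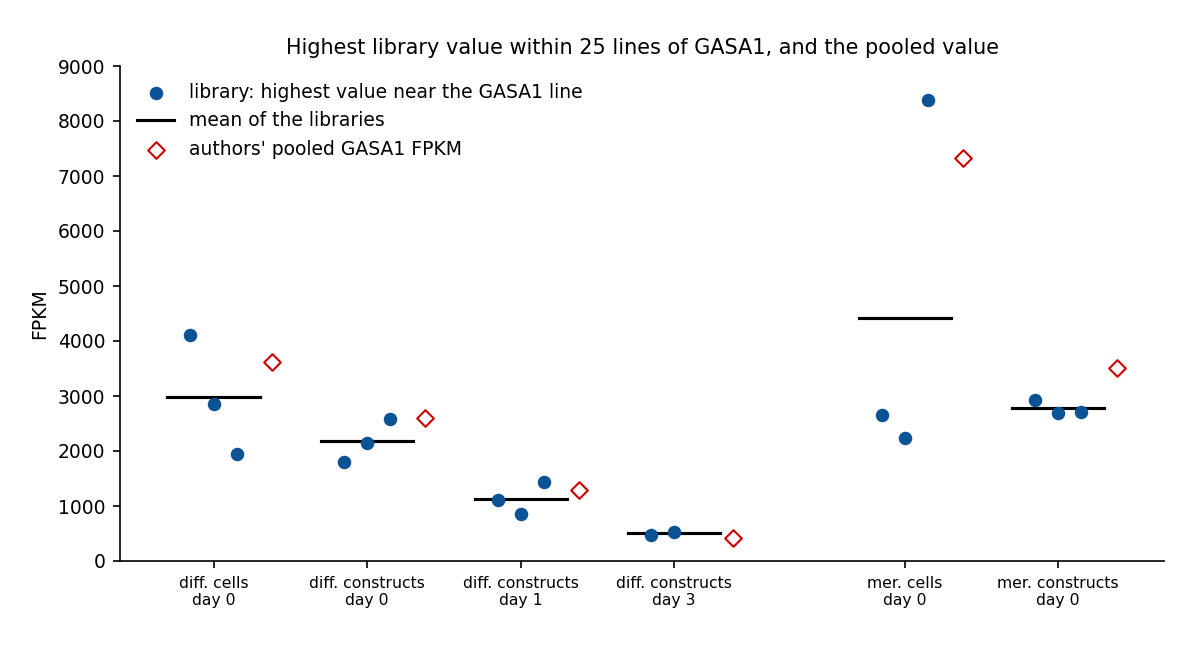
Highest FPKM within 25 lines of the GASA1 line in each of the 17 libraries (points), their group mean (line) and the authors' pooled GASA1 FPKM (diamond). Constructs of differentiated tissue step down from day 0 to day 3, where the points may belong to another gene. Points of the other groups may also in part belong to another gene. Replicate 3 of meristematic cells, at 8375, lies far above the other 2 libraries of its group.

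The next comparisons followed differentiated constructs over time. From day 0 to day 1 the log2 ratio was -1.02 for GASA1, -2.31 for GASA4, 6.49 for GASA5 and -1.47 for GASA10 in the authors' deposited table. From day 1 to day 3 the authors' deposited table gave -1.65 for GASA1, -2.83 for GASA4, 0.99 for GASA5 and 1.44 for GASA10. Over the whole span GASA1 was 6.33-fold and GASA4 35.3-fold lower at day 3 than at day 0, GASA5 was 180-fold (179.5) higher over a day 0 level under an FPKM of 1, and GASA10 stood at -0.02 on the log2 scale of the authors' deposited table. With a pseudocount of 1 the GASA5 log2 ratio was smaller, 5.42 in place of 6.49 to day 1 and 6.41 in place of 7.49 to day 3.

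By the call rule, 3 of 5 tested members were called from day 0 to day 1 (GASA5 higher, GASA1 and GASA4 lower), when 32.6% of 17993 genes were called (16.2% higher, 16.4% lower). From day 0 to day 3 it was 4 of 5, the same 3 and GASA14, lower, against 42.2% of 18372 genes (21.0% higher, 21.2% lower), and from day 1 to day 3 again GASA1, GASA4 and GASA5, 3 of 4, against 14.4% of 17611 (5.88% higher, 8.48% lower). The GASA14 call rests on 1.16 at day 0 against a listed 0 at day 3. With an FPKM minimum of 5 the count from day 0 to day 3 was 3. The comparisons over time led to the choice of the family and share libraries, so nothing is read from the counts.

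Among the other 7 loci, GASA7 went with GASA1 and GASA4, from 123 at day 0 to 68.9 at day 1 and 7.87 at day 3 (log2 ratio from day 0 to day 3 -3.96 in the authors' deposited table). GASA11 (AT2G18420), whose cysteine-rich end is the closest to that of GASA1 among the loci with 59 codons, at 78.5% of bases, had 0.389, 6.52 and 0.464 on days 0, 1 and 3. GASA9 and GASA13 were listed at 0 in the 6 groups.

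Differentiated root markers were called over this span as well, when 21.2% of all genes were lower and 21.0% higher. Of 5 tested, COBL9, EXPA7, CASP1 and IRX3 were lower at day 3 than at day 0 and GPAT5, a suberin enzyme, was higher; summed over the 5, pooled FPKM went from 513 to 327 and 88.5 on days 0, 1 and 3. Of 3 tested meristem markers, 1 was lower at day 3 and none higher: PLT2, from 2.33 to 0.223 (q 0.0103 in the authors' deposited table). KNOLLE went from 4.79 at day 0 to 1.39 at day 1 (q 0.00981 in the authors' deposited table) and 3.33 at day 3. The 4 meristem markers summed to 8.75, 3.26 and 5.11 on days 0, 1 and 3. The part of either marker list in the GASA changes was not tested.

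Genes with the most similar course were sought among 5449 named genes whose pooled FPKM reached 10 in any group, by the root mean square difference of centred log2(FPKM + 1) over the 6 groups. Nearest to GASA5 were CYP71A12, a cytochrome P450 of camalexin synthesis, at 0.36, PR-1-LIKE at 0.37 and PELPK1, a cell wall protein gene, at 0.44. CYP71A12 went from 21.3 at day 0 to 1196 at day 1 and 1287 at day 3, and PR-1-LIKE from 0.110 to 38.2 and 150.6. Nearest to GASA4 were the vacuolar aquaporin TIP4;1 at 0.25, the arabinogalactan protein AGP30 at 0.26 and the glutathione transferase GSTU26 at 0.27. TIP4;1 went from 68.0 at day 0 to 15.6 and 2.90.

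Nearest to GASA1 were IRX15-L of xylan synthesis at 0.10, the proton pump gene HA7 at 0.12 and ROH1 at 0.20. IRX15-L was at 31.7 in differentiated and 60.9 in meristematic cells, and the latter value could not be taken apart by library. Within the family, GASA1 differed from GASA7 by 0.49, from GASA4 by 0.90 and from GASA5 by 4.17 on this measure.

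The genes that make, remove and sense gibberellin gave the family its setting. At day 0, GA3OX1, which makes the last step to active gibberellins, rose in constructs of both tissues, from 3.11 to 6.71 in differentiated (log2 ratio 1.11, q 0.0363) and from 3.84 to 10.3 in meristematic tissue (1.43, q 0.00595) in the authors' deposited table. It was the 1 called of 6 tested synthesis genes in differentiated tissue, where 5.08% of all genes were higher and 7.38% lower, and of 4 in meristematic tissue, where 1.86% were higher and 8.52% lower. None of the tested deactivation or perception and signalling genes was called there, 3 and 11 in differentiated and 4 and 10 in meristematic tissue, beside 12.5% and 10.4% of all genes; counts this small do not set the lists apart from all genes.

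Between tissues, the ent-kaurene oxidase gene GA3 was lower in meristematic than in differentiated tissue, both in cells (log2 ratio -0.86, q 0.0488) and in constructs (-1.19, q 0.00355), in the authors' deposited table. The DELLA gene GAI was lower in meristematic cells (log2 ratio -1.38, q 0.0216) in the authors' deposited table. In meristematic constructs SLY1 was lower (-1.79, q 0.00509) and the deactivating oxidase GA2OX6 higher (0.88, q 0.0242), again in the authors' deposited table.

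Over time the deactivation genes went both ways. GA2OX2, an oxidase that inactivates gibberellins, rose from 12.2 at day 0 to 55.2 at day 1 and 108 at day 3 (log2 ratio 3.15 from day 0 to day 3, q 0.000551 in the authors' deposited table). GA2OX6, of the same class, fell from 84.7 to 26.5 and 23.0 (log2 ratio -1.88, q 0.000551), and GA2OX8 fell from 6.04 to 1.93 (q 0.0360), in the authors' deposited table. GA2OX4 rose from 0.394 at day 0 to 2.84 at day 1 (log2 ratio 2.85, q 0.0202 in the authors' deposited table). It stood at 1.72 at day 3, where it was not called against day 0. From day 0 to day 3, 1 of 4 tested deactivation genes was thus called higher and 2 lower, beside 21.0% of all genes higher and 21.2% lower.

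Of 5 tested synthesis genes, 2 were lower at day 3 and none higher, beside the same 21.2% and 21.0% of all genes. GA3OX1 fell from 6.71 to 1.47 (log2 ratio -2.19, q 0.0130) and GA3 from 15.6 to 5.28 (-1.56, q 0.00221) in the authors' deposited table. Perception and signalling had 3 of 11 lower and 1 higher. The receptors GID1A and GID1B fell (log2 ratio -1.32, q 0.00757, and -1.08, q 0.0117), the DELLA gene RGA fell from 31.6 to 10.7 (-1.56, q 0.000551), and the DELLA gene RGL3 rose from 2.59 to 7.28 (1.49, q 0.00808) in the authors' deposited table. The median log2 ratio was -1.56 over synthesis, 0.24 over deactivation and -0.17 over perception and signalling genes, against 0.05 over all genes tested.

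**Figure D5:**
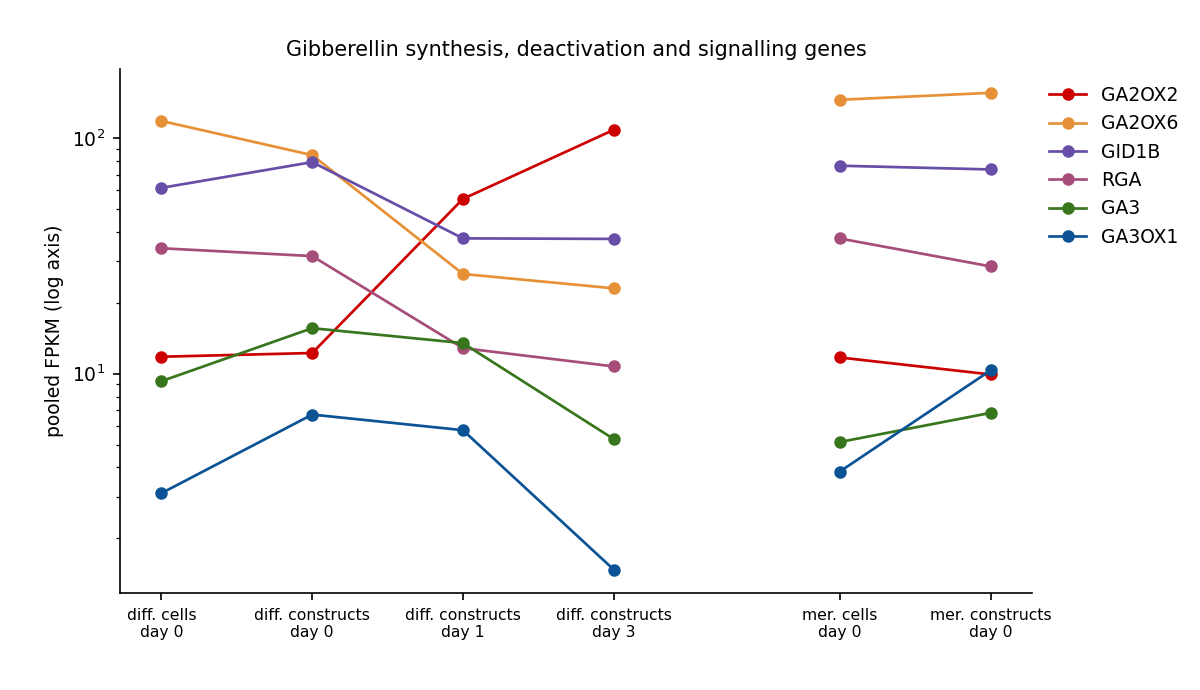
Pooled FPKM (log axis) of 6 gibberellin pathway genes in the 6 groups; lines join groups of 1 tissue. GA2OX2 climbs to 108 at day 3 while the other 5 genes drawn are lower at day 3 than in constructs at day 0. GA3OX1 is higher in constructs than in cells of both tissues at day 0. Not all called genes are drawn. Among those left out, RGL3 rose from 2.59 at day 0 to 7.28 at day 3 and GA2OX8 fell from 6.04 to 1.93.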

How the data were processed

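Messenger RNA was isolated by its poly(A) tail for 17 directional libraries, read from both ends over 150 bases, per the labels' protocols. HISAT2 and Cufflinks are named in the submitters' processing notes; no source used here gives versions, genome build or use of strand in counting. The authors deposited FPKM values per library (33560 lines) and, in a group table, pooled FPKM for 6 groups with log2 ratios and q-values for 7 comparisons. No source used here says how the authors made the deposited q-values; the smallest q was 0.000551. Ratios of meristematic over differentiated constructs were turned in sign from the deposited direction, and ratios with a group at 0 left out.

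Line by line, log2(FPKM + 1) of library pairs had a median correlation of 0.290 (136 pairs), against 0.942 for pooled columns (15 pairs), so no fit across libraries was run, and q-values of the authors replaced it. Summed library values over 50 lines to each side were planned for members holding at least 50% of the pooled FPKM there; none did, and the narrower window of 25 lines was used for GASA1, which held that share there in at least 1 group and as little as 25.5% in another. The highest value in that window was added after seeing the data.

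Members and lists were chosen with earlier results of these data known. Named were the 8 loci, up to 4 called members per list and comparison by smallest q, some members that were not called, given as values, and the 3 genes nearest to each member that reached an FPKM of 10. Not every gene meeting the rule is reported; other genes named for contrast, such as GASA9, GASA13 and the markers, come from the fixed lists. Sequences were matched by locus tag in RefSeq TAIR10.1, where all 53 list genes were found; the longest coding transcript was used. The scaling and profile steps, in Python 3.11.15 with numpy 2.4.6 and pandas 2.3.3, were tested on simulated data.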

Additional observations from a re-analysis of the deposited data

How the results depend on the processing

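No paired analysis was possible because the values per gene are pooled by group, and leaving out a replicate was possible only for sums around GASA1. With q under 0.01 in place of 0.05, 0 members were called between tissues in isolated cells and 0 between constructs and cells of differentiated tissue, so the GASA10 calls and the GASA4 call in differentiated tissue do not pass there, nor does GASA1 from day 0 to day 1 or GASA5 from day 1 to day 3; the call of GASA4 in meristematic constructs does. The other counts of called members stayed within 1.5 times under this setting, an FPKM minimum of 5 and no minimum; without one GASA6 is added at day 3, making 5. Rescaling to TPM moved the median of all genes most, from -0.13 to 0.21, in meristematic constructs over cells. It changed no sign of a called member's ratio, and of 29 ratios turned 2 that were near 0 and not called (GASA4 between tissues in cells, to -0.20, and GASA10 from day 0 to day 3, to 0.30). Median-ratio factors changed no sign. A pseudocount of 1 moved 6 ratios of genes low in a group and turned none; GASA5 from day 0 to day 3 went to 6.41.

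Summed FPKM within 25 lines of GASA1 gave log2 ratios of group means of -0.65 from day 0 to day 1 and -1.06 to day 3. Leaving out 1 replicate number, in both groups at once where present, gave -0.75 to -0.49 and -1.19 to -0.97. The highest value gave -0.94 and -2.11, and 50 lines gave -0.92 for day 3. Constructs over cells of differentiated tissue stood at -0.36, at -0.022 with 100 lines and at -0.63 to -0.047 without 1 replicate of each group. Constructs over cells of meristematic tissue stood at -0.56 and meristematic over differentiated cells at 0.45. Without 1 replicate of each group these ran from -0.82 to 0.10 and from -0.40 to 0.91. Both turned sign without replicate 3 of both groups. The highest value also turned sign without replicate 3 of meristematic cells alone (0.19 and -0.28).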
